A study of Mus musculus with 2 samples.

Results

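Bhlhe41, its close relative Bhlhe40 and 7 further genes tied to the B-1 lineage (Arid3a, Nfatc1, Cd5, Spn, Plscr1, Zcwpw1 and Tppp3) were read from messenger RNA sequencing of splenic marginal zone B cells. The 9 genes were taken by symbol from a table of 21829 gene symbols, and all 9 had a row. Bhlhe41 was chosen by its FPKM difference between the CD80high and CD80low libraries, and the other genes were chosen with results of these data known, so their differences are given as descriptions. The CD80high library came from marginal zone B cells with much of the costimulatory surface protein CD80, and the CD80low library from marginal zone B cells with little of it. Both came from spleens of male, wild type, untreated C57BL/6 mice. Each group had 1 library, so there is no spread between animals, no test, and no difference below has a replicate check. How many mice were used, their age and the remaining sort markers were not stated in the sources used here.

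B-1 cells are an innate-like B cell lineage of the body cavities and spleen that renews itself and makes much of the natural antibody, whereas marginal zone B cells descend mainly from conventional B-2 precursors and sit at the edge of the splenic white pulp. In mice, the basic helix-loop-helix repressor BHLHE41, with a smaller part played by BHLHE40, is needed for normal B-1a cells. ARID3A, NFATc1, CD5 and CD43 (encoded by Spn) are also used to follow or make that lineage. BHLHE40 and BHLHE41 bind the E-box CACGTG and are best known outside B cells as dampeners of the circadian clock, whose activators CLOCK and BMAL1 bind the same letters.

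The E-box is shown here because it is the sequence that ties Bhlhe41 to the clock genes described further on. Windows of up to 250 bases before the RefSeq transcription start (GRCm38, the assembly of mm10) were available for 5 of the 9 genes, and only the bases outside exons annotated by GENCODE M21 are printed, 5′ to 3′, with CACGTG in capitals. Per1 and Ciart, clock genes with this E-box, are set beside Bhlhe41, and Spn, the B-1 gene with the next largest ratio after Bhlhe41, is an example of a window without it.
Bhlhe41 (chr6:145865559-145865670, minus strand): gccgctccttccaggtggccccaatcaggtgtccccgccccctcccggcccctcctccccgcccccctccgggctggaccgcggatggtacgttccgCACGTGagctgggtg
Per1 (chr11:69098699-69098947, plus strand): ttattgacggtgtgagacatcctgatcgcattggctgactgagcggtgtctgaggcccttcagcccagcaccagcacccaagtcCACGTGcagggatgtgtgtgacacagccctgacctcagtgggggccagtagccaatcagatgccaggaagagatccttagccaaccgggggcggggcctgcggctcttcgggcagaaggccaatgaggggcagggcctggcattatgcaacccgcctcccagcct
Ciart (chr3:95882252-95882478, minus strand): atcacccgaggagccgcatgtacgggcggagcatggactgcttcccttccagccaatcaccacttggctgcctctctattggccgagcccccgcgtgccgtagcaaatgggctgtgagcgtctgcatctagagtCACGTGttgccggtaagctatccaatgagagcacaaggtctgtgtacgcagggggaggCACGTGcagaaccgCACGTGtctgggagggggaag
Spn (chr7:127137824-127138073, minus strand): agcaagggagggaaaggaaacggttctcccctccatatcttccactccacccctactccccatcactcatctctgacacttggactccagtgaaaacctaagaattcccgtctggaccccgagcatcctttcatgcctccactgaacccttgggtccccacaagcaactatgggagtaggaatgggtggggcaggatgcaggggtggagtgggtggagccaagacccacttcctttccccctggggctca

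The Bhlhe41 window held 1 CACGTG, whose first base lay 153 bases before the RefSeq start. Per1 held 1 and Ciart held 3. Per1 had 2 windows, and the printed one is the 1 with the letters. It lies inside the annotated gene, which starts at 69095217 on the plus strand. The letters read the same on both strands, and no other motif was searched. Over the full 250 bases, CACGTG was found in 1 of the 5 B-1 genes with a window (Bhlhe41) and in 4 of the 16 clock genes with one (Per1, Cry1, Tef and Ciart). These counts are per gene, and a gene was counted if any of its windows held the letters. The letters were found in 6.02% of 32851 windows of 27025 genes. That share is per window, and some genes had several windows (Csnk1e had 4), so the gene counts cannot be set directly beside it. A match is a description of the letters and not of binding.

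For each gene, FPKM (sequenced fragments per kilobase of transcript and per unit of library size, a per-length scale on which genes can be set beside each other) was read from both libraries. The ratio is log2((CD80high FPKM + 1)/(CD80low FPKM + 1)), so a positive ratio means higher in CD80high, and folds are ratios of FPKM. Steps in the low FPKM values put the depth at roughly 24200000 fragments for CD80high and 24700000 for CD80low. The approximate 95% intervals given with the folds come from this depth and reflect counting error alone, without the animals, the sort or the sharing of fragments among transcripts. Of 9955 genes whose mean was 1 FPKM or more, 35 (0.352%) were at least 2-fold higher in CD80high and 10 at least 2-fold lower on the ratio scale, and 4624 (46.4%) had a ratio above 0. The median ratio of all these genes was -0.02, and scaling both libraries to the same FPKM total would move it to 0.12. Cd80, the gene of the sort marker, was listed at 4.13 FPKM in CD80high cells and 1.32 FPKM in CD80low cells. B cell identity genes were abundant in both, with Cd79a at 1284 against 1574 FPKM and Cd79b at 987 against 1183 FPKM. Of the 8 B cell identity genes, 3 were higher in CD80high and 5 lower. The marginal zone genes Plac8 (1082 against 1029 FPKM) and Cr2 (807 against 837 FPKM) were abundant too. Of the 8 marginal zone genes, 7 were higher in CD80high and Cr2 was the 1 lower, with a median ratio of 0.13. With both libraries scaled to the same FPKM total all 8 were higher, next to 73.8% of all genes. Fcer2a, which encodes CD23 of follicular B cells, had 58.6 FPKM in CD80high cells and 118.5 FPKM in CD80low cells, the lowest ratio of the 7 follicular B cell genes. Of these, 5 were lower and 2 higher in CD80high (Klf2 at 692 against 628 FPKM and Ccr7 at 148 against 144 FPKM), with a median ratio of -0.20 that became -0.046 when both libraries were scaled to the same FPKM total.

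Of the 9 B-1 genes, 8 reached a mean of 1 FPKM and all 8 had a higher value in CD80high; their median ratio was 0.46. Next to 46.4% of all measured genes above 0, this is a description only, because the genes were chosen with these values known. Only Bhlhe41 among them was at least 2-fold higher on the ratio scale, with the background of 0.352% given above; it had been picked for that difference. At 1.5-fold there were 3 (Bhlhe41, Spn and Plscr1), against 1.51% of all measured genes. Tppp3 was under 1 FPKM in both libraries. In the authors' deposited table, 95 of 10814 tested genes (0.878%) met the authors' limits for a higher value in CD80high (2-fold, and a p-value no greater than 0.05). Bhlhe41 and Spn were the 2 B-1 genes among them, and their q-values there were 0.130 and 0.524.

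**Figure D1:**
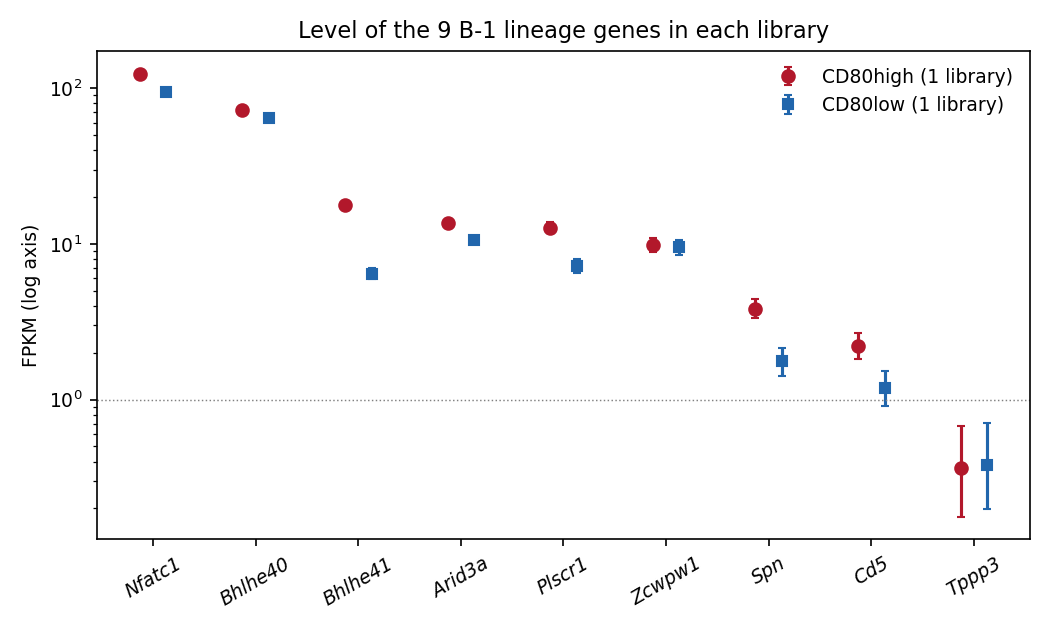
FPKM (log axis) of the 9 B-1 lineage genes in the CD80high (circles) and CD80low (squares) library, 1 library each, with approximate 95% counting intervals as bars. Bhlhe41 stands at 17.8 FPKM in CD80high cells and 6.45 FPKM in CD80low cells, the widest gap on this axis, while the points of Zcwpw1 and Tppp3 nearly coincide.

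Among the transcription factors, Bhlhe41 (ENSMUSG00000030256, chromosome 6, 145858243 to 145865558, minus strand) had 17.8 FPKM in CD80high cells and 6.45 FPKM in CD80low cells. The CD80high value was thus 2.76 times the CD80low value (2.50 to 3.05), resting on about 1478 and 547 fragments. Its ratio of 1.33 ranked 14 among the 9955 measured genes. The authors' deposited table gave it a p-value of 0.0003 and a q-value of 0.130, computed from 1 library per group.

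Bhlhe40, the relative that acts alongside Bhlhe41, is induced in many activated immune cells (chromosome 6, 108660629 to 108666925, plus strand). It was far more abundant and much closer between the libraries, at 72.9 FPKM in CD80high cells and 63.9 FPKM in CD80low cells, a fold of 1.14 (1.08 to 1.20). Bhlhe41 made up 19.6% of the summed FPKM of the pair in CD80high and 9.17% in CD80low. The sum of both was 90.7 FPKM in CD80high cells and 70.3 FPKM in CD80low cells, so Bhlhe40 was the larger part of the pair in both libraries.

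Nfatc1 encodes a calcium- and calcineurin-dependent factor that B-1a cells need in mice (chromosome 18, 80606205 to 80713071, minus strand). It was the most abundant of the 9, at 123 FPKM in CD80high cells and 95.2 FPKM in CD80low cells, with a fold of 1.29 (1.26 to 1.33). Arid3a, whose product binds the immunoglobulin heavy chain locus and favours B-1 development in mice (chromosome 10, 79927043 to 79955018, plus strand), stood at 13.5 FPKM in CD80high cells and 10.6 FPKM in CD80low cells, a fold of 1.27 (1.18 to 1.37). Both stood higher in CD80high by less than 1.5-fold. In the annotation, Bhlhe40 and Nfatc1 overlap antisense genes on the opposite strand (0610040F04Rik and AC123818.1), Bhlhe41 overlaps Gm43909, a locus of unsettled coding status, and Plscr1 overlaps the microRNA gene Mir6386. The use of strand in counting was not stated in the sources used here, so reads of these partners cannot be told apart from theirs. The authors' deposited table gave p-values of 0.152 for Nfatc1, 0.168 for Arid3a and 0.452 for Bhlhe40.

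The surface genes were low in both libraries. Spn encodes CD43, a sialomucin found on B-1 cells, plasma cells, T cells and myeloid cells (chromosome 7, 127132232 to 127137823, minus strand). It had 3.84 FPKM in CD80high cells and 1.76 FPKM in CD80low cells, a fold of 2.18 (1.71 to 2.83) on about 202 and 94 fragments. The fold lay above 2 while the ratio with the pseudocount was 0.81, under the 2-fold line. Cd5, whose product marks B-1a cells and T cells and restrains antigen receptor signalling (chromosome 19, 10717116 to 10739002, minus strand), had 2.21 FPKM in CD80high cells and 1.20 FPKM in CD80low cells. That is a fold of 1.85 (1.35 to 2.58) on about 111 and 61 fragments. The authors' deposited table gave p-values of 0.0031 for Spn and 0.0803 for Cd5, with q-values of 0.524 and 0.999.

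Markers of other cell types that use Cd5 or Spn were mostly higher in CD80high. All 12 T cell markers were higher in CD80high, with a summed level of 30.4 FPKM in CD80high cells and 20.2 FPKM in CD80low cells. Most of it came from Lck (15.5 against 15.2 FPKM) and Zap70 (4.71 against 3.77 FPKM). Only 4 of the 12 reached a mean of 1 FPKM, and of these Cd3g and Tcf7 did so only through their CD80high values. Cd3d, Cd4, Cd8a and Bcl11b rested on about 1 or 2 fragments in CD80low. The defining marker Cd3e had 0.819 FPKM in CD80high and was listed at 0 in CD80low, and Cd3g had 1.75 against 0.431 FPKM. Tcf7, a T cell transcription factor gene, had 2.52 FPKM in CD80high against 0.268 FPKM in CD80low. Cd6, the T cell and B-1a relative of Cd5, had 0.558 FPKM in CD80high cells and 0.0644 FPKM in CD80low cells. The gap between the libraries was 1.01 FPKM for Cd5 and 0.819 FPKM for Cd3e. Of the macrophage and monocyte markers 11 of 12 were above 0, all 11 higher in CD80high (summed 19.0 against 9.96 FPKM), and of the natural killer cell markers 8 of 9 were higher (summed 22.2 against 13.4 FPKM). Their named examples were Cd68 (9.16 against 6.81 FPKM), Adgre1 (1.58 against 0.895 FPKM), Gzma (4.45 against 0.807 FPKM) and Nkg7 (3.18 against 0.923 FPKM). Prf1, the most abundant of the natural killer cell markers, was lower in CD80high (10.01 against 10.6 FPKM). All 7 neutrophil markers above 0 were higher too (summed 4.48 against 0.498 FPKM, with S100a8 at 1.89 against 0.166 FPKM), but only 1 reached a mean of 1 FPKM. Camp, Ngp and Retnlg, Cd14 among the macrophage markers and Cd3e among the T cell markers were 0 in CD80low. Being above 0 thus fixed their direction. Of the 6 dendritic cell markers above 0, 5 were higher (summed 5.44 against 3.75 FPKM, with Flt3 at 2.15 against 1.94 FPKM and Itgax at 1.88 against 1.04 FPKM). A mean of 1 FPKM was reached by 4 macrophage and monocyte, 3 natural killer cell and 2 dendritic cell markers. Of all 14214 genes above 0, 7454 were higher in CD80high. Plasma cell genes, which go with CD43 on the surface, included Jchain at 39.9 FPKM in CD80high cells and 17.8 FPKM in CD80low cells. Of the 7 on this list 6 were higher, and 5 of the 7 reached a mean of 1 FPKM. Their summed level was 314 against 234 FPKM, most of it from Irf4 (197.8 against 148.2 FPKM). Derl3 was lower in CD80high (11.59 against 11.96 FPKM). Tnfrsf17, counted among the 6, was near 0 in both, at about 1 fragment in each library. The part of these cells in the values of Cd5 and Spn was not tested. In libraries of pooled cells, more cells of a type and more RNA per cell cannot be told apart.

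Of the remaining members, Plscr1 encodes an interferon-inducible phospholipid scramblase (chromosome 9, 92249750 to 92272278, plus strand). It had 12.7 FPKM in CD80high cells and 7.21 FPKM in CD80low cells, a fold of 1.76 (1.53 to 2.02). In the authors' deposited table its p-value was 0.0143 and its q-value 0.999. Zcwpw1, which encodes a reader of methylated histone H3 known from meiosis in mice (chromosome 5, 137787798 to 137822621, plus strand), stood at 9.89 FPKM in CD80high cells and 9.49 FPKM in CD80low cells, and the interval of its fold of 1.04 took in equality (0.897 to 1.21). Its last bases overlap Pilra on the opposite strand, which was close to 0 in both (0.0436 against 0.0311 FPKM). Tppp3, of the tubulin polymerization-promoting family (chromosome 8, 105467493 to 105471526, minus strand), had 0.365 FPKM in CD80high cells and 0.378 FPKM in CD80low cells, about 10 and 11 fragments. The interval of its fold ran from 0.353 to 2.41, so no difference was detectable at that depth.

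**Figure D2:**
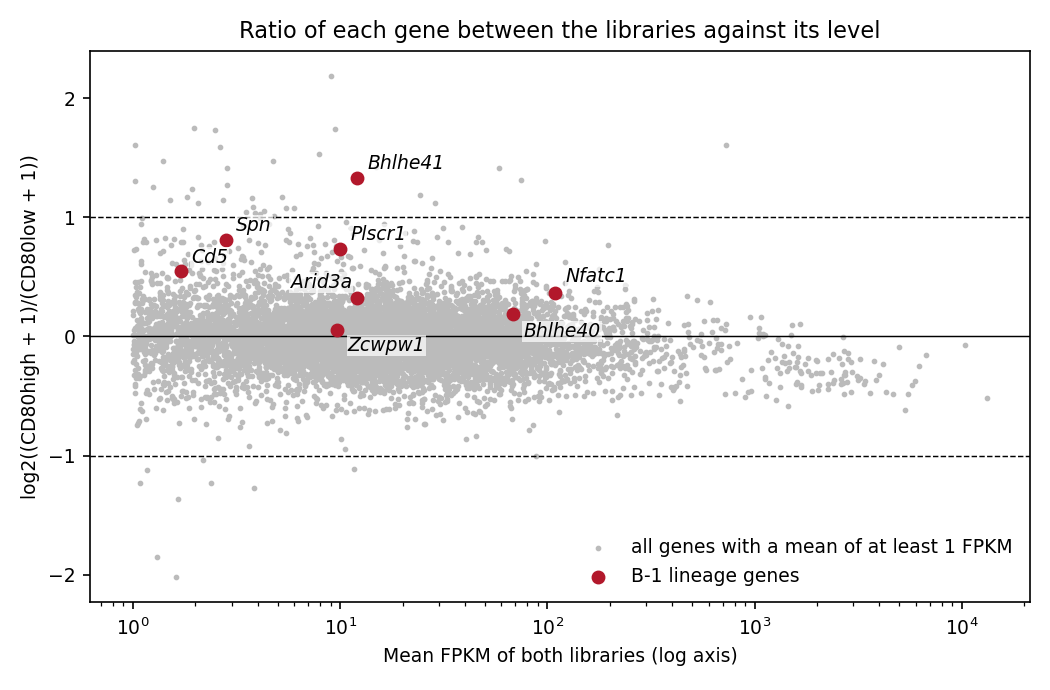
Ratio of each gene, log2((CD80high + 1)/(CD80low + 1)), against its mean FPKM (log axis), for all 9955 measured genes (grey) and the 8 B-1 lineage genes among them (red), with dashed lines at 2-fold. Bhlhe41 lies above the upper line at 1.33, Spn and Plscr1 lie under it at 0.81 and 0.74, and Zcwpw1 lies near 0.

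The order of the levels was Nfatc1, Bhlhe40, Bhlhe41, Arid3a, Plscr1, Zcwpw1, Spn, Cd5 and Tppp3 in CD80high, and Nfatc1, Bhlhe40, Arid3a, Zcwpw1, Plscr1, Bhlhe41, Spn, Cd5 and Tppp3 in CD80low. Bhlhe41 thus held place 3 in CD80high and place 6 in CD80low, and it lay above 54.1% of the measured genes in CD80high and above 23.2% in CD80low. The counting intervals of neighbours overlapped for Arid3a and Plscr1 in CD80high. In CD80low they overlapped for Arid3a and Zcwpw1, for Plscr1 and Bhlhe41, and for Spn and Cd5.

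Genes most like Bhlhe41 were taken as the 5 nearest in log2(FPKM + 1) over the 2 libraries. They were Serpine2 (14.4 FPKM in CD80high cells and 6.93 FPKM in CD80low cells, distance 0.30), Ccdc88b (15.1 and 7.56 FPKM, distance 0.30), Sirpa (15.2 and 7.90 FPKM, distance 0.34), Zbtb20 (22.1 and 7.65 FPKM, distance 0.37) and Mindy3 (13.9 and 8.35 FPKM, distance 0.47). With only 2 libraries, nearness means a like level and a like ratio and nothing more.

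A wider list of 18 B-1 cell genes was read next to the 9. It too was chosen with earlier results of these data known, so its counts are descriptions only. Of its 17 measured members, 16 were higher in CD80high and 1 lower, next to 46.4% of all measured genes with a ratio above 0. The median ratio was 0.47, against -0.02 for all genes. Of the 17, Zbtb32 and Itgam were under 1 FPKM in CD80low and passed the filter on the mean only through their CD80high values. At least 2-fold higher were 4, next to 0.352% of all genes under the same filter. They were Zbtb32, a zinc finger repressor gene (4.35 FPKM in CD80high against 0.605 FPKM in CD80low), Il10, which encodes an anti-inflammatory cytokine (12.2 against 3.55 FPKM), Ctla4, an inhibitory receptor gene (4.61 against 1.11 FPKM), and Ahnak, which encodes a large scaffold protein (5.86 against 2.36 FPKM). Pdcd1lg2, which encodes the B-1 surface ligand PD-L2, was the 1 lower gene at 6.67 FPKM in CD80high cells and 7.93 FPKM in CD80low cells. Il5ra, the receptor for the cytokine that sustains B-1 cells, chosen for mention after its values were seen, had 19.0 FPKM in CD80high cells and 14.3 FPKM in CD80low cells, a fold of 1.33 (1.21 to 1.46). Itgam, which encodes CD11b of peritoneal B-1 cells and of myeloid cells and was also chosen after its values were seen, had 2.57 FPKM in CD80high cells and 0.912 FPKM in CD80low cells. Lin28b, which in mice drives fetal type B-1 output, was listed at 0 in both. Markers of myeloid, T and natural killer cells were also mostly higher, as given above. The part of such cells in the values of Itgam, Ctla4 and Ahnak was not tested.

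Clock genes, which BHLHE40 and BHLHE41 repress in other tissues, were mostly close between the libraries. Of 19 on the list, 15 were measured, 14 were higher in CD80high and 1 was lower, next to 46.4% of all measured genes with a ratio above 0. None reached 2-fold, 1 (Nfil3) was at least 1.5-fold higher, next to 1.51% of all genes, and the median ratio was 0.13. The activators Clock (12.7 against 10.9 FPKM) and Arntl, which encodes BMAL1 (12.02 against 11.4 FPKM), differed little. Per1, a feedback repressor gene with an E-box shown above, had 80.1 FPKM in CD80high cells and 59.2 FPKM in CD80low cells, a fold of 1.35 (1.31 to 1.40). Ciart, with 3 E-boxes, had 50.9 FPKM in CD80high cells and 47.6 FPKM in CD80low cells, a fold of 1.07 (0.968 to 1.18). Nr1d2, which encodes REV-ERB beta, had 29.4 against 23.2 FPKM. Nfil3, the gene of a repressor at D-box sites that also serves lymphoid development, had the largest ratio of the list at 0.68, with 7.77 FPKM in CD80high cells and 4.49 FPKM in CD80low cells. Cry1, the 1 lower gene, had 8.21 FPKM in CD80high cells and 8.69 FPKM in CD80low cells. With transcript length taken into account 14 of the 15 were higher, next to 49.9% of all genes. With both libraries scaled to the same FPKM total all 15 were, next to 73.8% of all genes, and the median ratio became 0.27, next to 0.12 for all genes.

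**Figure D3:**
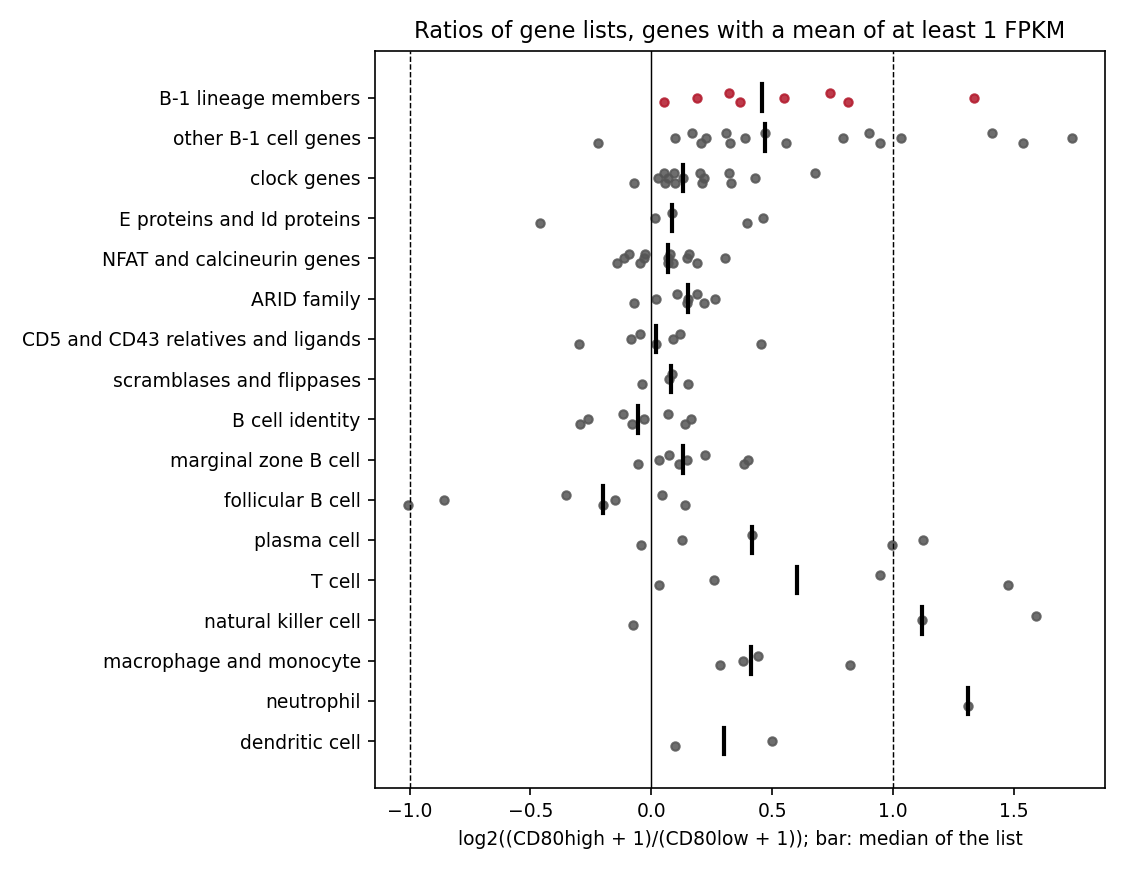
Ratios, log2((CD80high + 1)/(CD80low + 1)), of the measured genes (mean of 1 FPKM or more) on each list, 1 point a gene, with the median of the list as a bar and dashed lines at 2-fold. The 8 B-1 lineage genes (red) and the other B-1 cell genes have medians of 0.46 and 0.47, while the clock, NFAT and ARID lists lie closer to 0 with medians of 0.13, 0.07 and 0.15.

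E proteins are helix-loop-helix activators of B cell genes, and Id proteins are the partners that hold them off DNA. Id2 had 45.2 FPKM in CD80high cells and 32.5 FPKM in CD80low cells, a fold of 1.39 (1.28 to 1.51), whereas Id3 had 42.9 FPKM in CD80high cells and 59.4 FPKM in CD80low cells, a fold of 0.723 (0.673 to 0.776). The 2 Id genes thus differed in opposite directions: they were at like levels in CD80high, and Id3 was the higher of the pair in CD80low. Among the E proteins, Tcf3 had 72.1 against 71.3 FPKM, Tcf12 23.1 against 21.7 FPKM and Tcf4 90.9 against 68.9 FPKM. Of the 5 measured genes of this list 4 were higher, next to 46.4% of all measured genes, and none was at least 2-fold different.

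The other NFAT and calcineurin genes were split, with 8 of 14 measured genes higher in CD80high and 6 lower, next to 46.4% of all measured genes higher. None was at 2-fold, and the median ratio was 0.07. Nfatc3 had 77.0 FPKM in CD80high cells and 73.4 FPKM in CD80low cells, Nfatc2 13.8 against 11.9 FPKM, and Nfat5, the member that answers osmotic stress, 47.7 against 38.4 FPKM. Rcan1, a feedback inhibitor of calcineurin and itself an NFAT target, had 5.69 FPKM in CD80high cells and 5.91 FPKM in CD80low cells, and the interval of its fold of 0.963 took in equality (0.822 to 1.13). Ppp3r1, the regulatory calcineurin subunit gene, had 80.3 FPKM in CD80high cells and 85.7 FPKM in CD80low cells. Nfatc1, at a ratio of 0.37, lay above the highest of these 14 genes, Nfat5, at 0.30. When both libraries were scaled to the same FPKM total, all 14 were higher in CD80high, next to 73.8% of all genes.

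Relatives of the other members with a mean of 1 FPKM or more were less than 2-fold apart, while some below that level were further apart. Of the ARID genes, 7 of 8 measured were higher in CD80high, and their median ratio was 0.15, which became 0.0497 once transcript length was taken into account. All 8 were higher when both libraries were scaled to the same FPKM total. That scaling put 73.8% of all genes higher, which is the share to set beside each scaled count in this paragraph. The share to set beside the unscaled counts is 46.4%, and beside counts with transcript length taken into account it is 49.9%. Arid3b had 31.6 FPKM in CD80high cells and 28.4 FPKM in CD80low cells, and Arid3c was under 1 FPKM in both (0.0225 against 0.515 FPKM), a fold of 0.0437 (0.00144 to 0.383). Among scramblase and flippase genes, 3 of 4 measured were higher (5 of 5 when scaled to the same total, 2 of 4 with transcript length taken into account), Plscr3 had 7.95 against 7.51 FPKM, and Plscr4 (0.507 against 0.355 FPKM) was under 1 FPKM in both. Plscr2 and Plscr5 were listed at 0 in both libraries. The flippase gene Atp11a had 1.5004 FPKM in CD80high against 0.499 FPKM in CD80low, a fold of 3.01 (2.08 to 4.51) with a mean just under 1 FPKM. Of the CD5 and CD43 relatives and ligands, 4 of 7 measured were higher, and 6 of 7 when scaled to the same total. Cd72, which has been described as a ligand of CD5, had 228.8 FPKM in CD80high cells and 282 FPKM in CD80low cells, and Cd44 had 33.1 against 23.9 FPKM. Cd6, given above and under 1 FPKM in both, had a fold of 8.67 (3.49 to 37.4). Of the relatives of Tppp3 and Zcwpw1, Tppp was near 0 (0.0712 against 0.0383 FPKM), Tppp2 was listed at 0 in both, and Morc3, another gene with a CW domain, had 41.5 against 42.1 FPKM. None of the genes in these lists with a mean of 1 FPKM or more was at least 2-fold different.

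**Figure D4:**
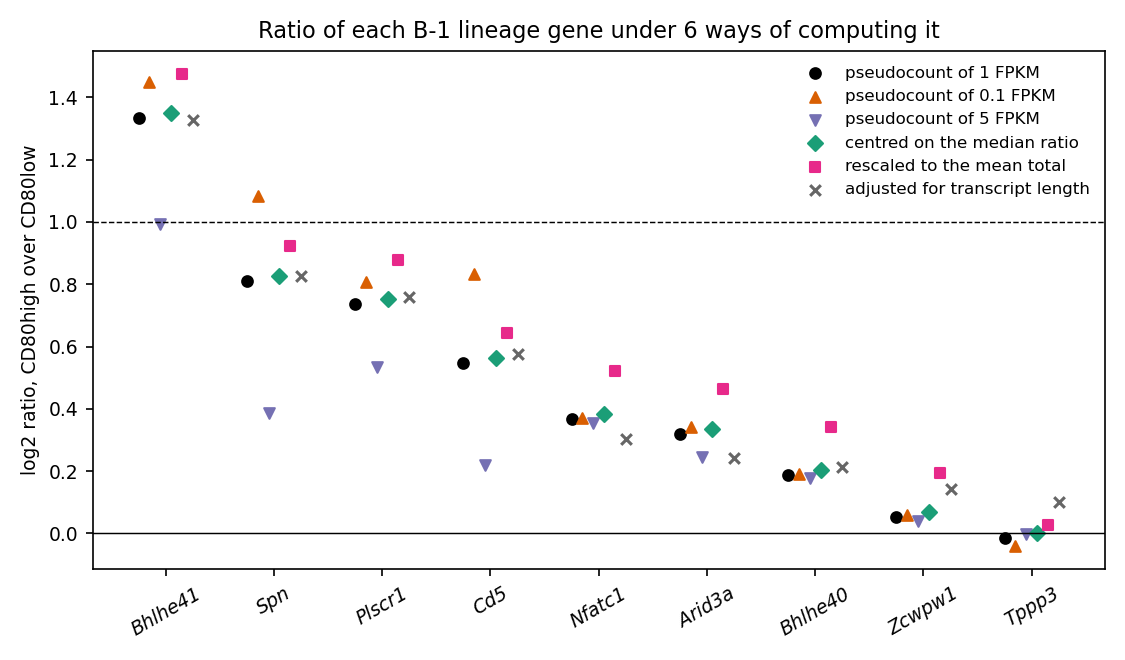
Ratio of each B-1 lineage gene, CD80high over CD80low (log2), under 6 ways of computing it, 1 marker each, with a dashed line at 2-fold. Bhlhe41 has the largest ratio under each of the 6 and lies at 0.99 with a pseudocount of 5 FPKM, and Spn moves most, with values between 0.39 and 1.08.

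The ratios of Bhlhe41 and Spn depended on the pseudocount. With 5 FPKM the ratio of Bhlhe41 was 0.99, just under 2-fold, so that 0 of the 8 genes were called, and with 0.1 FPKM Spn was called too, at 1.08. The direction of the 8 measured genes was the same under each of the 6 ways of computing the ratio, and that of Tppp3 was not.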

How the data were processed

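Messenger RNA of 1 CD80high and 1 CD80low library of splenic marginal zone B cells was analysed. The submitters' processing notes name the genome build mm10 and FastQC 0.11.5, STAR 2.6, Cufflinks 2.2.1, Cuffnorm and Cuffdiff, without their roles. The values deposited by the authors are FPKM. A p-value and a q-value per gene were also deposited by the authors, per the file headers, and rest on 1 library per group. RNA was isolated with a Maxwell method and libraries were directional, per the labels' protocols; use of strand in counting was not stated in the sources used here.

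The table had 21853 rows, all annotated as protein coding; 24 symbols on more than 1 row were summed. Ratios used a pseudocount of 1 FPKM and calls a mean of at least 1 FPKM and 2-fold. No test was run, because each group has 1 library. Depth was estimated from steps in FPKM times transcript length (under 0.3 FPKM kb; genes with 1 protein-coding transcript longer than 2000 bases). Fragments per gene used the median transcript length, and fold intervals were exact conditional (Clopper-Pearson) ones; the calculation was tested on simulated data. Length adjustment subtracted the median ratio of the 501 genes nearest in length. Positions and lengths came from GENCODE M21 (GRCm38), matched by Ensembl identifier for all 21829 symbols, and promoter windows from RefSeq (GRCm38).

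The members and gene lists were chosen with earlier results of these data known. All 9 members were named. Of the wider B-1 and cell type lists, members past 2-fold were named (up to 4 in each direction), or else the 2 most abundant, and any gene of the other lists could be named; further genes were named as checks of the labels or as markers of other cells. Tools were scipy 1.17.1, numpy 2.4.6, matplotlib 3.10.9, pandas 2.3.3 and Python 3.11.15.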

Additional observations from a re-analysis of the deposited data

How the results depend on the processing

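No paired analysis was possible because CD80high and CD80low had 1 library each, and no replicate could be left out. The alternatives were a pseudocount of 0.1 or 5 FPKM, no filter or a filter of 5 FPKM, a threshold of 1.5-fold, centring, rescaling to the mean total, the other deposited sheet and an adjustment for transcript length.

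The number of B-1 lineage genes called higher was 1, and it was 2 with a pseudocount of 0.1 FPKM, 0 with 5 FPKM and 3 at 1.5-fold; none was called lower under any of these. Over all genes, 35 were called higher and 10 lower; these counts were 69 and 25 with a pseudocount of 0.1 FPKM, 8 and 0 with 5 FPKM, 13 and 2 with a filter of 5 FPKM, and 150 and 89 at 1.5-fold. The fall with a larger pseudocount follows from its construction, since it shrinks the ratios of low genes.

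Rescaling to the mean total adds 0.155 (log2) to every ratio before the pseudocount and gave medians of 0.62 for the other B-1 cell genes, 0.27 for clock genes, 0.24 for E and Id proteins, 0.20 for NFAT and calcineurin genes, 0.30 for ARID genes, 0.17 for CD5 and CD43 relatives, 0.23 for scramblases and flippases and 0.13 for the relatives of Tppp3 and Zcwpw1, next to 0.12 for all genes. With the length adjustment the medians were 0.57 for the other B-1 cell genes and 0.0497 for ARID genes. The natural killer cell median was 1.12 over 3 genes and -0.075 with a filter of 5 FPKM, which left 1 gene, Prf1. The median of the B-1 lineage genes lay between 0.30 and 0.59. Of the 54 alternative ratios of the 9 genes, 45 stayed within the counting interval and 9 did not. The 45 include the other deposited sheet, where all 9 genes had the same ratios as before and so could not move. Centring took away only the median of -0.015 from each ratio, so the 45 are no measure of stability. Depth limits Tppp3 most, then Cd5 and Spn.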
